A study of Mus musculus with 378 samples.

Results

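The G1 cyclins, kinases and cell-cycle inhibitors described here are 7 genes: the D-type cyclin genes Ccnd1 and Ccnd3, the kinase genes Cdk4 and Cdk6, and the inhibitor genes Cdkn1a, Cdkn1b and Cdkn2c. They were taken by symbol from the 22180 genes of the deposited tables, where all 7 are present, and each passed the filter on low counts that left 16927 genes for testing. The RNA came from the islets of Diversity Outbred mice, each of which carries its own mosaic of founder genomes, with 1 library per mouse. Per the labels, all mice, females and males, ate a high-fat, high-sugar diet (45% fat), so the series holds no group on another diet. The labels give sex by a letter in the title and state no age, and no gene was targeted. Because mouse numbers run in stretches of a single sex, the numbers were divided into 4 bands of 100 starting at 21, each with both sexes. Within each band females come first by number and males after, almost without exception, so sex cannot be told apart from the number stretch. Band 1 had 46 females and 45 males, band 2 had 46 and 48, band 3 had 49 and 50, and band 4 had 47 of each. What a number band stands for is not stated.

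D-type cyclins bind Cdk4 or Cdk6, and the active complex phosphorylates the retinoblastoma protein, which releases E2F transcription factors and lets a cell pass from G1 into S phase. The INK4 inhibitor p18, encoded by Cdkn2c, binds Cdk4 and Cdk6 directly, whereas the CIP and KIP inhibitors p21 (Cdkn1a) and p27 (Cdkn1b) act on cyclin-bound kinases. In mouse beta cells, Cdk4 and Ccnd2 are known to be needed for growth of the beta cell mass after birth, and menin is known to raise Cdkn1b and Cdkn2c transcription. Mki67, a nuclear protein gene expressed in cycling cells, served as the measure of proliferation RNA.

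The libraries held 15.1 to 68.8 M counts, with a median of 34.8 M. Band 4 was shallower, with a median of 23.99 M against 36.4 to 37.2 M in bands 1 to 3. The islet label was checked against hormone genes: Ins2 ranged from 49861 to 193986 CPM (counts scaled to the size of the library), Gcg from 1161 to 69197 CPM and Sst from 84.9 to 7733 CPM, and none was at 0 in any library. These hormone values were scaled to library size alone, whereas the gene levels and sums given below were also scaled by normalisation factors (TMM). Exocrine RNA was also present, since the summed level of 9 acinar genes ran from 17.5 to 49916 CPM. No female had a count from the Y-linked genes and no male lacked one. Xist, the RNA of the inactive X, was low in 2 females, and the sex differences and the relations to Mki67, between members and to list scores were repeated without them. A whole islet preparation gives one value per mouse, so a lower value may come from fewer cells of a type or from less RNA per cell, and the data cannot tell these apart.

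Promoter sequence is shown for Cdkn2c, the member that moved most closely with Mki67, for Mki67 itself, and for Cdkn1b, the member whose RNA correlated best with Cdkn2c. The 3 stretches come from the RefSeq promoter table (GRCm38.p6), which matched 6 members with 9 promoters; Ccnd1 was not matched. Each ends at the base before the transcript start and leaves out annotated exon bases. Capitals mark matches to the letters listed after the sequences.
Cdkn2c promoter, chr4:109665373-109665609, minus strand: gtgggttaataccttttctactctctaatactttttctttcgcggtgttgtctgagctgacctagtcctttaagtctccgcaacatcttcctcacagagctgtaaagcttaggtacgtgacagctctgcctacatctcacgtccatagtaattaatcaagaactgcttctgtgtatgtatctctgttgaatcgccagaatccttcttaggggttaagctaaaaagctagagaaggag
Mki67 promoter, chr7:135716380-135716629, minus strand: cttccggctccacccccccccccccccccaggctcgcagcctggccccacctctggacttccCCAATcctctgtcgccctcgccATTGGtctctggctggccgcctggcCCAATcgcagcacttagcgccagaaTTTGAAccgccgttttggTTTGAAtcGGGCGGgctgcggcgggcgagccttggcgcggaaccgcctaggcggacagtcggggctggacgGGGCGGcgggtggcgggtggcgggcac
Cdkn1b promoter, chr6:134920151-134920400, plus strand: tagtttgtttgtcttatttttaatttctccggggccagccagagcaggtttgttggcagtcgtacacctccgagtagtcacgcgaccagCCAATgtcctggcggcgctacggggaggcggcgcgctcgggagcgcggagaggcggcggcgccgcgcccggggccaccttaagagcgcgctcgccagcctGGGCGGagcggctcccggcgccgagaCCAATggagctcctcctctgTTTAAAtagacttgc

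On both strands of 250 bases before the start, 5 motifs were searched. The first was the set of E2F letters (TTTCCCGC, TTTCGCGC, TTTGCCGC or TTTGGCGC). The cell-cycle homology region was searched as TTTGAA or TTTAAA. The other 3 were the CCAAT box, the GC box, searched as GGGCGG, and the TATA box, searched as TATAAA. E2F letters occurred in 1.86% of 32851 promoters and in 0 of the 9 member promoters. The cell-cycle homology letters occurred in 25.2% of all promoters and in 1 of the 9, CCAAT in 33.85% and in 2, GGGCGG in 32.7% and in 6, and TATAAA in 12.4% and in 1. TTTAAA reads the same on both strands, and no matches overlap in the stretches printed. The Mki67 stretch held 2 matches to the cell-cycle homology region, 3 to CCAAT, 1 of them on the other strand (printed as ATTGG), and 2 to GGGCGG. In the Cdkn1b stretch there were 1, 2 and 1 such matches, and TTTAAA lay 10 to 15 bases before the start. The Cdkn2c stretch held none of the letters searched. The Cdkn2c stretch belongs to a RefSeq start inside the gene span given in the deposited table. It is shorter than 250 bases because exon bases were left out. The bases before the upstream end of the Cdkn2c gene span are not printed, so the stretch does not show which letters lie there. A match is only a description of the letters.

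The 2 D-type cyclins differed in level and in how much they varied between mice. Ccnd1 (ENSMUSG00000070348, GRCm38 chr7:144929931-144939925, minus strand) ranged from 22.2 to 150.1 CPM in females (median 75.1) and from 35.8 to 172.6 CPM in males (median 86.9). The ranges of the sexes overlapped almost entirely, with the lowest mouse a female and the highest a male. Females averaged 77.8 ± 23.9 CPM and males 91.2 ± 29.6 CPM (SD). Its log2 difference, female minus male, was -0.23 ± 0.05 (SE), a 1.17-fold lower level in females (edgeR quasi-likelihood test with band as a covariate, Benjamini-Hochberg adjusted p = 9.95e-06).

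Ccnd3 (ENSMUSG00000034165, chr17:47505051-47599691, plus strand) ranged from 14.98 to 42.6 CPM in females (median 20.96) and from 14.94 to 51.3 CPM in males (median 22.05). It was 1.04-fold lower in females by the same test (log2 -0.06 ± 0.02, adjusted p = 0.00466). The call was lost without the band covariate (adjusted p = 0.284) and in each band alone (-0.07, -0.04, -0.09 and -0.03 in bands 1 to 4). Ccnd3 followed the number band more than any other member: its median was 18.96, 20.8, 20.7 and 34.3 CPM in bands 1 to 4. The lowest Ccnd3 value of band 4, 28.3 CPM, was above the highest of band 1, 27.1 CPM. The band accounted for 76.2% of the variance of its log2 level and sex for 0.616%.

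The kinase gene Cdk4 was the steadiest member, and Cdk6 the least steady. Cdk4 (ENSMUSG00000006728, chr10:127063534-127067920, plus strand) ranged from 98.02 to 169.6 CPM in females (median 122.5) and from 89.5 to 161.6 CPM in males (median 119.5). The highest mouse had 1.90 times the Cdk4 level of the lowest. Cdk4 was the 1 member that was higher in females, 1.02-fold (log2 0.03 ± 0.01, adjusted p = 0.0192). In bands 1, 2, 3 and 4 taken alone, the Cdk4 difference was 0.05, 0.09, 0.04 and -0.03 on the log2 scale, so the sign of the estimate turned in band 4. The band 4 estimate had an SE of 0.03 and was not called (adjusted p = 0.438).

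Cdk6 (ENSMUSG00000040274, chr5:3341485-3531008, plus strand) ranged from 3.22 to 33.7 CPM in females (median 8.92) and from 2.47 to 47.2 CPM in males (median 10.3). Its highest mouse had 19.1 times the level of its lowest. The log2 difference was -0.23 ± 0.09, 1.18-fold lower in females (adjusted p = 0.0163), and was not called by limma-voom (adjusted p = 0.0599) or in the deposited log2 values (adjusted p = 0.0736).

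The CIP and KIP inhibitors were among the more abundant members. Cdkn1a (ENSMUSG00000023067, chr17:29090979-29100722, plus strand), which encodes p21 and is a known p53 target, ranged from 39.5 to 200.1 CPM in females (median 92.9) and from 48.9 to 208.7 CPM in males (median 97.6). It was the 1 member with no call between the sexes (log2 -0.05 ± 0.04, adjusted p = 0.274). Cdkn1b (ENSMUSG00000003031, chr6:134920401-134925513, plus strand), which encodes p27, ranged from 46.3 to 120.4 CPM in females (median 81.5) and from 56.8 to 140.6 CPM in males (median 89.04). Females averaged 80.8 ± 14.9 CPM and males 89.7 ± 15.2 CPM, 1.11-fold lower in females (log2 -0.15 ± 0.02, adjusted p = 7.33e-11).

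The INK4 inhibitor gene Cdkn2c, which encodes p18, was low in level and differed most between the sexes. Cdkn2c (ENSMUSG00000028551, chr4:109660876-109667189, minus strand) ranged from 1.04 to 8.67 CPM in females (median 2.20) and from 0.796 to 11.1 CPM in males (median 3.12). It had 22 to 665 counts per library, with a median of 87, so counting error weighs more on Cdkn2c than on any other member. The log2 difference was -0.59 ± 0.06, 1.51-fold lower in females (adjusted p = 1.16e-19). In bands 1 to 4 alone the Cdkn2c difference was -0.75, -0.58, -0.45 and -0.61, and each passed the threshold. Mki67 was lower in females as well, at 1.11 to 16.9 CPM in females (median 3.23) and 0.934 to 51.3 CPM in males (median 3.97; log2 -0.73 ± 0.09, adjusted p = 3.62e-12). The size of the Mki67 difference moved with the fit: it was -0.44 by limma-voom, -0.31 in the deposited log2 values (limma, adjusted p = 2.25e-06) and, in band 3 alone, -0.34 with no call (adjusted p = 0.184). With 7 scores of acinar, duct, endothelial, stellate, macrophage, lymphocyte and Schwann cell markers added to the fit, the Cdkn2c difference was -0.35 (adjusted p = 1.15e-08) and that of Mki67 -0.25 (adjusted p = 0.0140). In the deposited log2 values the Cdkn2c difference was -0.30 (limma, adjusted p = 1.59e-15).

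**Figure D1:**
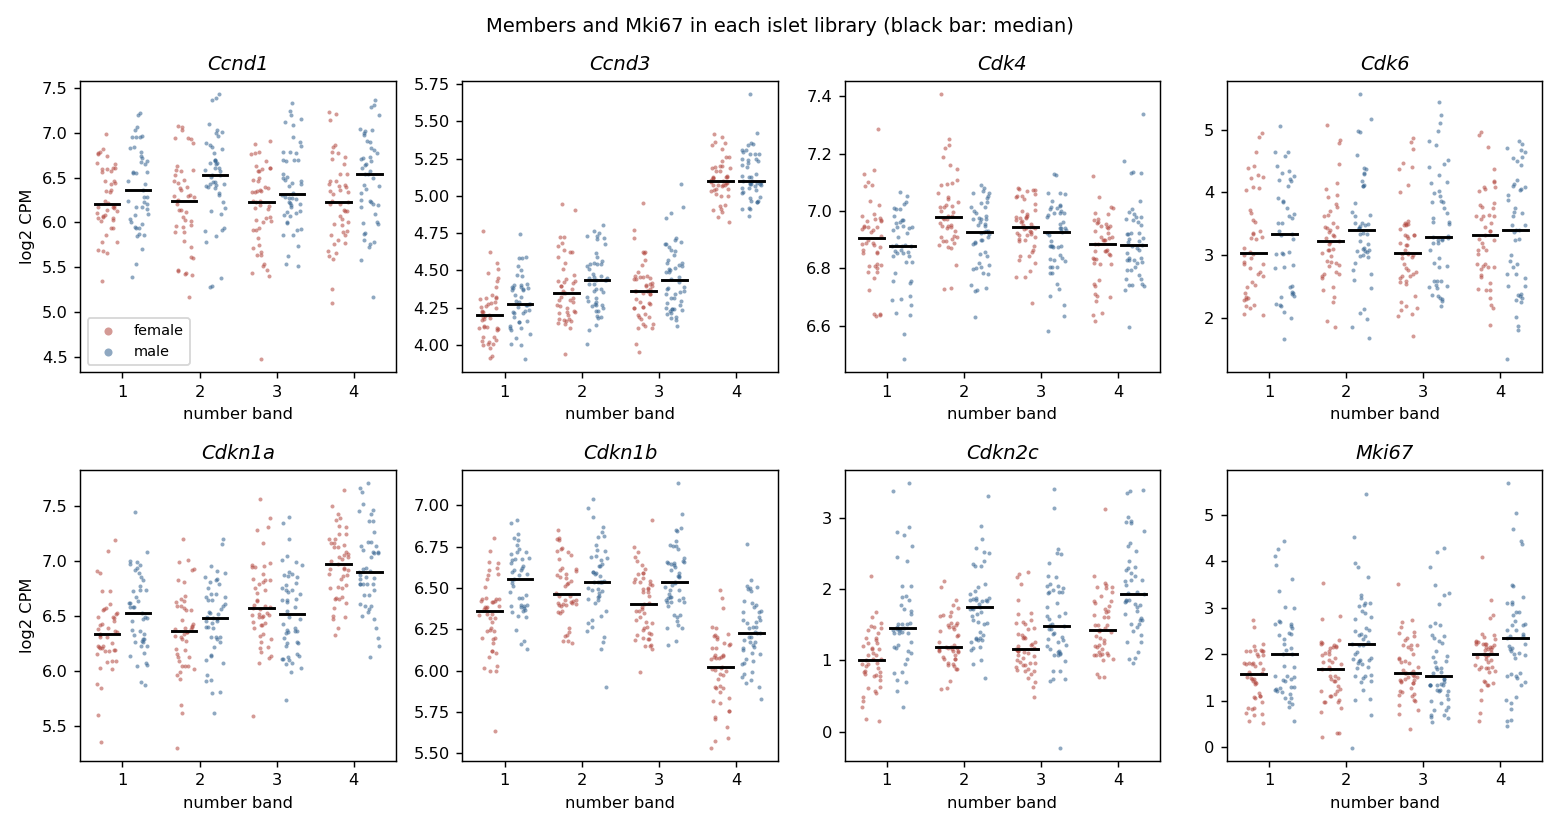
Log2 CPM of the 7 members and Mki67 in each library, with females left of males in each number band and a black bar at the median. Cdkn2c medians lie lower in females in all 4 bands, and Ccnd3 in band 4 lies above its other bands.

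In all, 6 of the 7 members were called between the sexes, 1 higher and 5 lower in females. The background was high: 50.6% of all tested genes were called, 21.7% higher and 28.8% lower in females. With the 7 scores in the fit 4 members were called, and Ccnd3 (adjusted p = 0.0585) and Cdk4 (adjusted p = 0.0814) were not. The sexes also differed in cell type markers. The summed level of 7 alpha cell genes was 6004 to 68976 CPM in females (median 22281) and 1864 to 41885 CPM in males (median 11004). The 11 endothelial genes summed to 391.6 to 737.6 CPM in females (median 534.8) and 421.8 to 1292 CPM in males (median 587.5). For the 11 stellate and fibroblast genes the sums were 69.99 to 445.3 CPM in females (median 149.7) and 83.4 to 1773 CPM in males (median 175.8). The 12 beta cell genes had a median sum of 133925 CPM in females, against 161186 CPM in males. The hormone genes Gcg, Ins1 and Ins2 make up most of the alpha and beta cell sums. By gene, 6 of the 7 alpha cell genes were called higher in females and 1 lower. Called lower were 8 of the 12 beta cell, 10 of the 11 endothelial and 5 of the 11 stellate and fibroblast genes, the rest not called. Of 9 acinar genes 0 were called. The part of these markers in the member differences was not tested beyond the fit with 7 scores, which holds no endocrine score. No member's sex difference was called as varying between bands (0 of 7, against 1.09% of all genes, by edgeR, and 0 of 7 by limma on the deposited values). At an unadjusted p under 0.05 there were 3 of 7 members, against 16.8% of all genes.

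**Figure D2:**
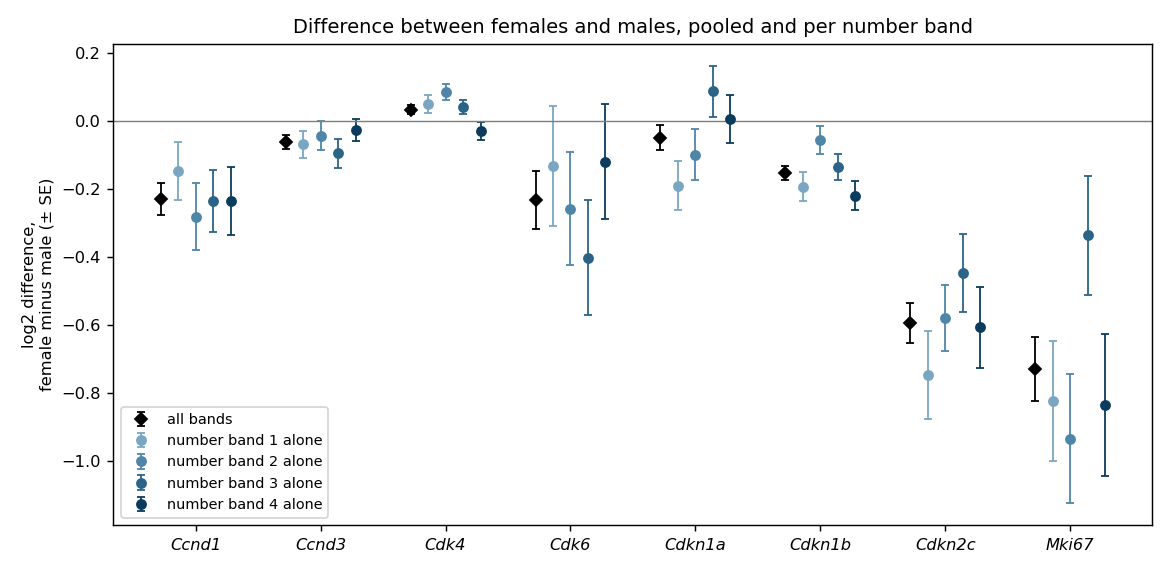
Log2 difference, female minus male, of each member and Mki67 from the edgeR fit over all bands (diamonds) and in each band alone (circles), with bars of 1 SE. Cdkn2c lies between -0.75 and -0.45 in the single bands, and Cdk4 changes side in band 4.

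Between number bands 5 members were called, against 87.9% of all genes. Band 4 minus band 1, the fitted log2 difference was 0.87 for Ccnd3, 0.51 for Cdkn1a, 0.44 for Cdkn2c and -0.32 for Cdkn1b. Ccnd1 (0.04) and Cdk6 (0.08) were not called, with adjusted p = 0.587 and 0.919. Cdk4 was called as well, and its mean was highest in band 2 (124.6 CPM, against 118.5 CPM in band 1). Across 16867 tested genes with an annotated transcript, the difference between bands 4 and 1 followed the transcript's GC content with Spearman's rho = 0.746. Transcript GC was 56.7% for Ccnd3, 58.03% for Cdkn2c and 54.4% for Cdkn1a, and 43.1% for Cdkn1b. The part of base composition or depth in these differences was not tested. In the deposited log2 values limma called 0 genes between bands, and 0 genes had an unadjusted p under 0.05, members included, so those values say nothing about the band differences of the counts.

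Per kilobase of annotated exon, the family was led by Ccnd2, a cyclin outside the 7, with 89.6 ± 16.8 CPM per kb (SD over all mice). Among the members the order of the mean level was Cdk4 (37.2 ± 3.31 CPM per kb), Cdkn1a (28.3 ± 8.42), Cdkn1b (18.7 ± 3.44), Ccnd1 (18.0 ± 5.88), Ccnd3 (2.76 ± 0.804), Cdkn2c (1.14 ± 0.612) and Cdk6 (0.836 ± 0.529). Cdkn1b and Ccnd1 were neighbours within their spread, since Cdkn1b was above Ccnd1 in 59.5% of mice. Cdk4 exceeded Cdkn1a in 82.5% of mice, Cdkn1a exceeded Cdkn1b in 84.1%, Ccnd3 exceeded Cdkn2c in 96.03% and Cdkn2c exceeded Cdk6 in 70.9%. Ccnd1 was above Ccnd3 in 100% of mice. Exon length is the union over all annotated transcripts, which lowers the value of long genes such as Cdk6 (13989 bases).

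The counting can mix neighbours for some members. Counts of Ccnd1, Ccnd3 and Cdk4 were whole in 0% of libraries and those of Cdk6 in 53.7%, whereas those of the 3 inhibitors and Mki67 were always whole. Exons of Ccnd1 overlap Oraov1, those of Ccnd3 overlap Bysl and those of Cdk4 overlap Tspan31, each on the opposite strand. No source used here gives the strand setting, so reads of these pairs cannot be told apart with certainty. With sex and band means removed, Ccnd1 correlated with Oraov1 at r = 0.342, Ccnd3 with Bysl at 0.380 and Cdk4 with Tspan31 at 0.327.

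The spread between mice was measured as the SD of log2 CPM around the mean of each sex and band, and was ranked among genes of like level, within 0.5 on the log2 scale. The median SD of all genes was 0.285. Cdk4 had an SD of 0.122, at percentile 6.49 of 1495 genes of like level. Ccnd3 (0.187, percentile 28.3) and Cdkn1b (0.206, percentile 52.03) were near the middle or lower. Cdkn2c had an SD of 0.531, but at percentile 54.5 for its low level. Cdk6 (0.821, percentile 92.7), Ccnd1 (0.467, percentile 90.97) and Cdkn1a (0.357, percentile 84.1) were the members that varied most for their level. One SD either way spans a 3.12-fold range for Cdk6 and a 1.19-fold range for Cdk4.

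The spread differed between the sexes for 1 of 7 members, against 4.96% of all genes (limma on absolute deviations, 14332 genes of mean CPM at least 1). Cdkn2c had an SD of 0.400 in females and 0.628 in males (adjusted p = 0.000893). Mki67 differed in the same direction, with 0.598 in females and 1.01 in males (adjusted p = 2.69e-05). Cdk6 had 0.745 in females and 0.878 in males and was not called (adjusted p = 0.0939).

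Cdkn2c was the member with the largest correlation with Mki67. With the mean of each sex and band removed, it correlated with Mki67 over all mice at Pearson r = 0.688 and Spearman's rho = 0.597. The permutation p was 1e-05, the smallest that 100000 permutations within sex and band can give (adjusted p = 4.35e-05 over the relations of 7 members with Mki67, with each other and with 19 list scores). Without the 2 mice farthest from the median of Mki67, r was 0.672. In bands 1 to 4 it was 0.764, 0.667, 0.641 and 0.696. Among 16926 genes ranked by r with Mki67, Cdkn2c came 42nd from the top. By the limma fit, Cdkn2c rose by 0.43 ± 0.02 log2 units (SE) for each log2 unit of Mki67 (adjusted p = 7.51e-51). With the 7 cell type scores removed too, r was 0.564. Those scores hold no endocrine score, and Cdkn2c had r = 0.301 with beta, -0.391 with alpha and -0.451 with delta cell genes.

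**Figure D3:**
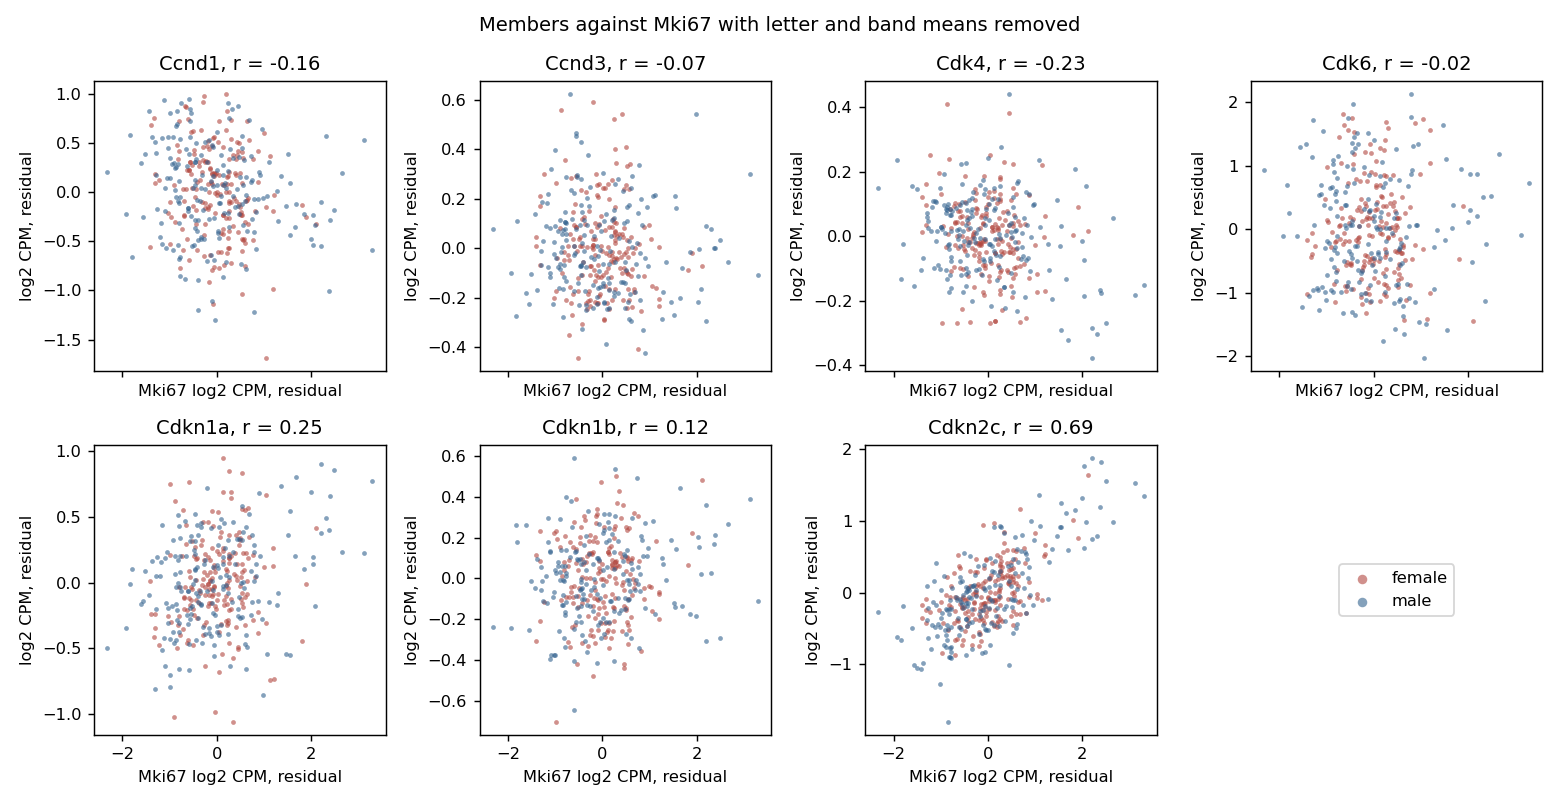
Residual log2 CPM of each member against that of Mki67 after removal of sex and band means, 1 point per mouse. The points of Cdkn2c rise with Mki67 (r = 0.688), and Cdk6 has r = -0.020.

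The other members had smaller correlations with Mki67. Cdkn1a had r = 0.251 (rho = 0.209, adjusted p = 7.32e-05 and 0.000196) and r = 0.233 without the 2 farthest mice. Cdk4 had r = -0.234 (rho = -0.180, adjusted p = 4.35e-05 and 0.00167) and -0.216 without them. Ccnd1 had r = -0.165 (rho = -0.159, adjusted p = 0.00499 and 0.00742) and -0.170 without them. Ccnd1 lies on the same chromosome as Mki67 (chr7:135689788-135716379), and the part of shared founder stretches in this relation was not tested. Cdkn1b (r = 0.115, adjusted p = 0.0501), Ccnd3 (-0.072, adjusted p = 0.246) and Cdk6 (-0.020, adjusted p = 0.793) were not called. The 4 called relations kept their sign in all 4 bands. In the limma fit over all genes 5 of 7 members were called, 3 of them positive, against 53.8% of genes, 25.6% with a positive and 28.2% with a negative slope. The fifth was Cdkn1b, at 0.03 ± 0.01 log2 per log2 (adjusted p = 0.0494), and its call was lost in 9 of 11 alternatives, among them a prior count of 0.5 (adjusted p = 0.0501) and RLE size factors (adjusted p = 0.0572), with the sign turned in 2 of the 9. With the 7 scores 2 members were called, Cdkn2c and Cdkn1a. With the 7 cell type scores removed too, Cdk4 had r = -0.113 (adjusted p = 0.0586) and was no longer called, and Cdkn1a had 0.142.

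The correlation of Cdkn2c with Mki67 was lower in females (r = 0.528) than in males (r = 0.748), a difference of -0.219 (permutation of sex within band, p = 0.00066, adjusted p = 0.00462 over 7 members). The slope of Cdkn2c on Mki67 was 0.353 in females and 0.463 in males, and that difference was not called (adjusted p = 0.228). Cdkn1a had r = 0.111 in females and 0.341 in males (p = 0.0366, adjusted p = 0.128).

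Among the 21 pairs of members, 12 were called and 7 of these were positive. For comparison, 36% of all pairs of tested genes had an r at least as far from 0 as the smallest called pair. The largest was Cdk4 with Cdkn1a (r = -0.380, rho = -0.345, adjusted p = 4.35e-05): mice with more of the kinase RNA had less of the p21 RNA. Cdkn1b and Cdkn2c correlated at 0.279 (rho = 0.252), Ccnd1 and Cdkn1a at -0.249 (rho = -0.247), and Cdk4 and Cdk6 at -0.233 (rho = -0.217), each with adjusted p of at most 0.000161. Cdkn1a with Cdk6 (0.182) and with Cdkn2c (0.179) were called as well. Weaker called pairs were Cdk4 with Cdkn1b (0.148), with Ccnd3 (0.137) and with Ccnd1 (0.135), Cdk6 with Cdkn1b (-0.144), Ccnd1 with Cdkn2c (-0.140) and Ccnd1 with Ccnd3 (0.120). Of the 12, 11 had 1 sign in all 4 bands, the exception being Ccnd1 with Cdk4, at -0.00273 in band 4. By Spearman's rho all 12 were called too, and without the 2 mice farthest from the median all 12 kept their sign, with r moving by at most 0.035. Ccnd3 with Cdk4 lost its call without those 2 mice (adjusted p = 0.0635). With other size factors (RLE), 9 pairs were called, and the 3 lost were Ccnd3 with Cdk4 (adjusted p = 0.0771), Cdk4 with Cdkn1b (0.0865) and Ccnd1 with Ccnd3 (0.0548). These 3 were lost in the deposited values too. With the 7 scores removed, Cdkn1a with Cdkn2c (r = 0.0842, adjusted p = 0.168), Ccnd1 with Cdkn2c (adjusted p = 0.0586) and Ccnd1 with Ccnd3 (adjusted p = 0.0755) were not called.

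The members were then set against scores of 19 gene lists, each score the mean standardised residual of the list's tested genes. Of these relations 66, or 49.6%, were called, against 44.2% of all gene and score pairs that reach the same r. The number called ran from 2 for Cdk6 to 16 for Cdkn2c. By Spearman's rho 60 of the 66 were called too, and without the 2 mice farthest from the median all 66 kept their sign.

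Cdkn2c correlated with the score of 18 mitosis genes at r = 0.713 (rho = 0.632), with hypoxia genes at 0.478 and with DNA replication genes at 0.472 (rho = 0.303). All 18 mitosis genes had a positive r with Cdkn2c, with a median of 0.587. Of 22 replication genes 15 had a positive r with Cdkn2c, the lowest at -0.308. Cdkn2c ran against delta cell (-0.451) and alpha cell (-0.391) genes and with endothelial genes (0.343). Of the 7 alpha cell genes 2 had a positive r, up to 0.541. By sex, r of Cdkn2c was 0.272 in females and 0.589 in males with hypoxia genes, and 0.199 in females and 0.582 in males with replication genes. With delta cell genes it was -0.175 in females and -0.573 in males, and with alpha cell genes -0.220 in females and -0.510 in males. The differences of these r between the sexes were not tested. Cdkn1a correlated with immediate early genes at 0.542 (rho = 0.529), with hypoxia genes at 0.370 and with macrophage genes at 0.336. With 20 p53 targets, a list without Cdkn1a, it correlated at 0.310, and 13 of the 20 had a positive r. Cdkn1b correlated with NF-kB genes at -0.471 (rho = -0.461), with beta cell genes at 0.338 and with lymphocyte genes at -0.314; the last list rests on 2 tested genes.

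Cdk4 correlated with stellate and fibroblast genes at -0.329 (rho = -0.243), with ER chaperones at 0.303 and with immediate early genes at -0.254. Its r with ER chaperones was 0.482 in females and 0.134 in males, and with stellate and fibroblast genes -0.187 in females and -0.436 in males, also untested. Cdk6 had its largest r with NF-kB genes (0.233) and immediate early genes (0.211). Ccnd1 had its largest with immediate early genes (-0.221), hypoxia genes (-0.205) and alpha cell genes (0.189). Ccnd3 had its largest with beta cell genes (0.267), duct genes (0.223) and immediate early genes (0.215). Each of these had an adjusted p of at most 0.000608. In band 4, r of Ccnd3 was 0.072 with beta cell and 0.025 with immediate early genes, against 0.419 and 0.357 in band 3. With duct genes it was 0.174 to 0.276 over the bands. Single beta cell genes had r with Ccnd3 from -0.183 to 0.557 (median 0.080), and 9 of the 12 were positive. Of the 66 called relations 60 had 1 sign in all 4 bands. Immediate early and NF-kB genes are known to respond quickly to tissue handling, and their part in the relations of the members was not tested.

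**Figure D4:**
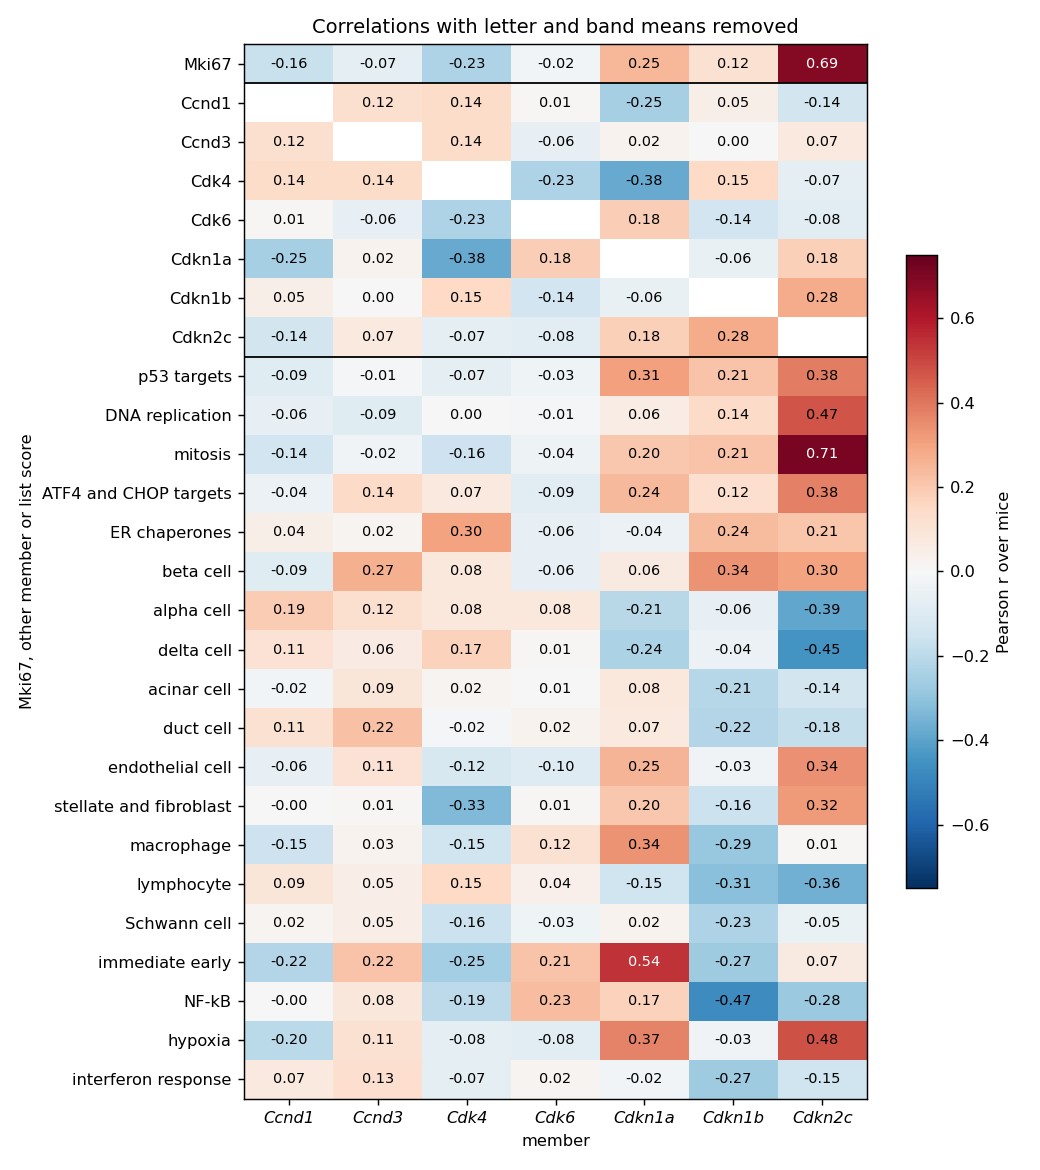
Pearson r over all mice of each member (columns) with Mki67, the other members and 19 list scores (rows), after removal of sex and band means. Cdkn2c has 0.71 with mitosis and 0.69 with Mki67, Cdkn1a has 0.54 with immediate early genes and Cdkn1b has -0.47 with NF-kB genes.

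Single genes with the nearest pattern are given as a description over all mice, with means of sex and band removed and a mean of at least 5 CPM. For Cdkn2c, 1.48% of 16926 genes had r of at least 0.5 and 93 genes had r of at most -0.5. Its highest were Klhl24 (0.677), Smpdl3a (0.664), Abtb1 (0.658), Wdr45 (0.656), Bckdk (0.649) and Ssr4 (0.644), and its lowest were Tuba4a (-0.643), Tmco4 (-0.624) and Dnajc11 (-0.622). Klhl24 and Dnajc11 were also on the list of Mki67, at 0.647 and -0.638. The gene with the highest r of all, outside the rule and named after its value was seen, was 9630013D21Rik (r = 0.735, mean 0.788 CPM), which lies next to Cdkn2c, at -0.003 Mb.

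For Cdkn1a the highest were Ppp1r15a (0.616), a phosphatase subunit gene induced in the stress response, the MAP kinase phosphatase genes Dusp5 (0.614) and Dusp4 (0.592), Tmcc3 (0.603), Hdac5 (0.5996) and Dedd2 (0.571). Its lowest were Gnpat (-0.576), Cyb5b (-0.567) and Ube3c (-0.565). For Cdk4 the highest included 3 proteasome subunit genes, Psmc5 (0.597), Psmd13 (0.578) and Psmd2 (0.563), beside Tmem199 (0.575), Gps1 (0.558) and Nap1l4 (0.551), and the lowest were Abl2 (-0.529), Tead1 (-0.487) and Med13l (-0.483). For Cdkn1b they were Mat2b (0.542), Six4 (0.5004), Sepsecs (0.494), Thap11 (0.491), Ttc33 (0.484) and Tsc22d3 (0.483), against Pgs1 (-0.527), Hivep2 (-0.523) and Arid5a (-0.521).

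Ccnd3 had 1.48% of genes with r of at least 0.5, led by Aes (0.681), Ssbp4 (0.677), Abhd17a (0.676), Rbm42 (0.670), Hspbp1 (0.654) and Oaz1 (0.650). Its lowest were Itch (-0.544), Trpm7 (-0.539) and Thoc2 (-0.531). These relations varied between bands: r of Ccnd3 with Rbm42 was 0.171 in the lowest band and 0.793 in the highest. Ccnd1 had 0 genes at 0.5 or beyond, with Zfp324 (0.331), Ift122 (0.323), Lman2 (0.322), Utp20 (0.321), Bop1 (0.317) and Il17rc (0.316) at the top and Ppp2r2d (-0.347), Ypel4 (-0.342) and Bsdc1 (-0.335) at the bottom.

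Cdk6 had few correlates, and its strongest lay close to it on chromosome 5. Within 2 Mb, 4 of 20 genes (20%) had an absolute r of at least 0.3, against 0.0762% of 15753 genes on other chromosomes. The 3 genes with r of at least 0.5 all lay within 2 Mb and had low levels: Mterf1b (r = 0.575, mean 2.56 CPM), Gm43679 (0.574, mean 1.61 CPM) and Gm43577 (0.521, mean 1.54 CPM), named after their values were seen. Gatad1, a GATA zinc finger gene at chr5:3632932-3657185, had r = -0.566, with -0.620 to -0.535 in the 4 bands. Abcb1a, a drug transporter gene farther away at chr5:8660077-8748575, had 0.482. The highest elsewhere were Mapk6 (0.366), Rel (0.352), Zswim4 (0.315), Zbtb46 (0.310) and Fam83c (0.309), and the lowest were Mettl13 (-0.300), Lrrc57 (-0.295) and Commd9 (-0.294).

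Other members also had close neighbours that varied with them. Cdkn1b correlated with Crebl2 (chr6:134830154-134858931) at 0.660, the highest of its named genes, and with Etv6 (chr6:134035700-134270158), a transcription factor gene, at -0.516. Cdkn1a correlated with Mapk14 (chr17:28691342-28748404), the p38 kinase gene, at 0.529 and with Kctd20 at 0.429. Ccnd1 had 2 of 25 neighbours (8%) beyond 0.3, against 0.199% of genes on other chromosomes. They were Oraov1 (0.342), whose exons overlap those of Ccnd1, and Fadd (0.312). Ccnd3 had Mrpl2 (0.576) and Tbcc (0.530), Cdk4 had Pa2g4 (0.414) and Atp5b (0.409), and Cdkn2c had Btf3l4 (0.548) and Coa7 (-0.423). Beyond 0.3 there were 18.2% of neighbours within 2 Mb for Cdkn1b, against 5.91% of genes on other chromosomes, 37.1% for Cdkn2c, against 17.2%, and 18.9% for Cdk4, against 7.38%. For Cdkn1a the share was 12.7%, against 9.41%. For Ccnd3 it was 23.3% within 2 Mb and 22.2% from 2 to 10 Mb, against 11.1% on other chromosomes.

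**Figure D5:**
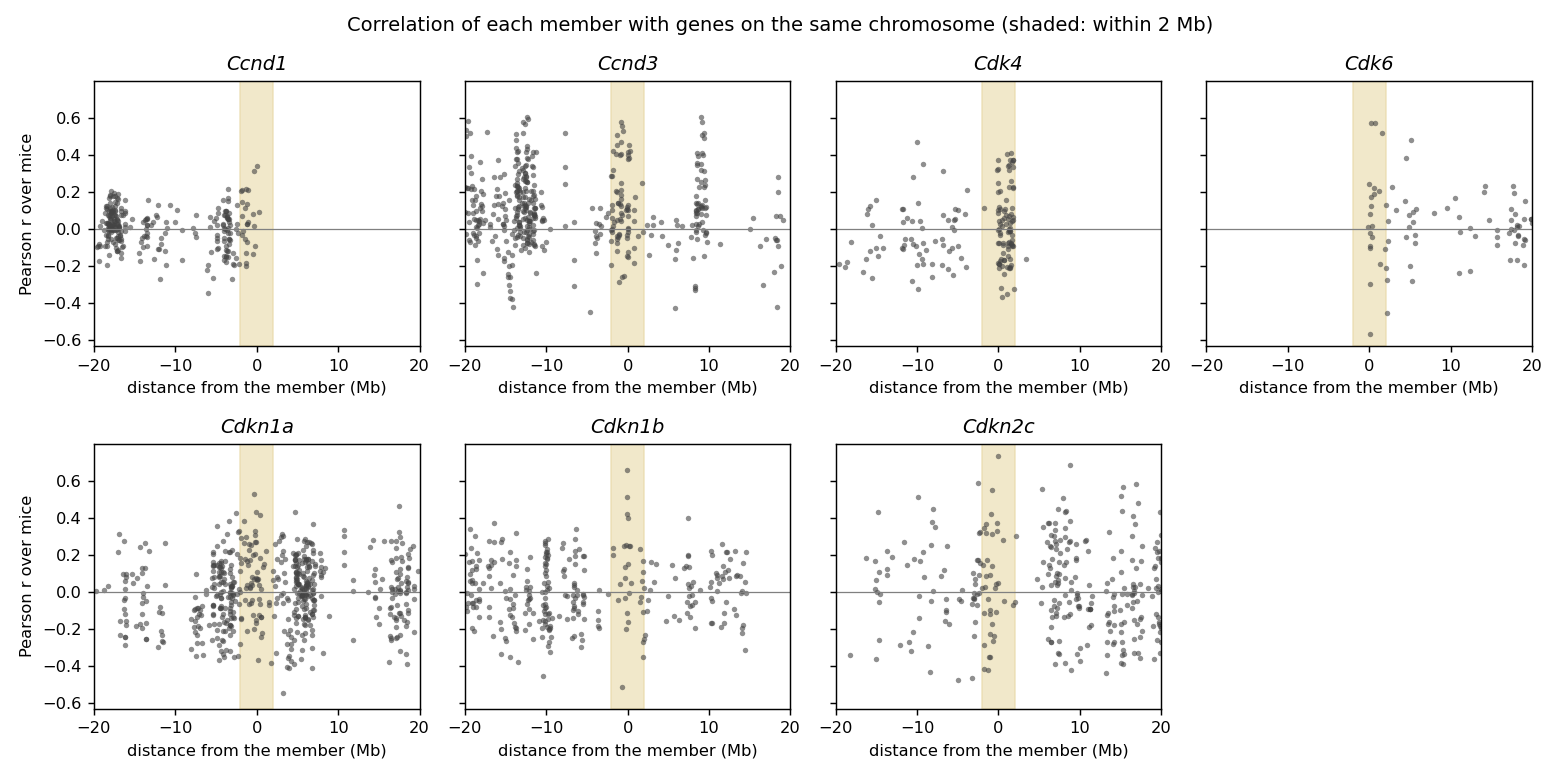
Pearson r over mice of each member with tested genes on its chromosome, by distance in Mb from the member, with 2 Mb either side shaded. For Cdk6 the shaded stretch holds Mterf1b (0.575) and Gatad1 (-0.566), and Cdkn1b has Crebl2 (0.660) and Etv6 (-0.516) there.

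The other genes of the G1 and S phase step were taken as a list of 29, chosen with earlier results of these data known. Of 27 tested, 4 were higher and 13 lower in females and 10 were not called, against 21.7% higher and 28.8% lower over all genes, with a median log2 difference of -0.04, against -0.01 over all genes. Lower in females were Tfdp2 (-0.32, adjusted p = 5.3e-15), a DNA-binding partner of E2F, the activators E2f2 (-0.38, 6.21e-09) and E2f1 (-0.35, 1.86e-06) and the repressor E2f6 (-0.12, 7.06e-09). Cdk7, the kinase that activates other cyclin-dependent kinases, was higher (0.14, 9.89e-11). Higher as well were Skp2 (0.16, 1.12e-06), the activator E2f3 (0.09, 0.00153) and E2f4 (0.05, 0.0195). Ccnd2, the most abundant D-type cyclin, ranged from 478.1 to 1371 CPM in females (median 813.6) and from 535.0 to 1240 CPM in males (median 849.3; log2 -0.09 ± 0.03, adjusted p = 0.00168). In bands 1 to 4 alone the Ccnd2 difference was -0.12, -0.18, -0.12 and 0.07, called in band 2 only.

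With Mki67, 13 of these 27 had a positive and 5 a negative slope that was called, against 25.6% and 28.2% of all genes, with a median of 0.03 log2 per log2, against -0.00216 over all genes. E2f1 (0.42, adjusted p = 1.29e-28), Tfdp2 (0.21, 1.77e-24) and E2f2 (0.28, 1.77e-15) rose with Mki67 and Cdk7 fell (-0.08, 1.46e-11), by limma. Ccnd2 (-0.01, adjusted p = 0.572), Rb1 (0.01, 0.515) and the activator E2f3 (-0.00465, 0.824) were not called. Cdkn2c correlated with E2f1 at r = 0.604, with Tfdp2 at 0.588 and with E2f2 at 0.506, as a description. Of the other inhibitor genes tested on this list, the INK4 genes Cdkn2d (0.11, 7.4e-09) and Cdkn2b (0.10, 0.000314) rose with Mki67. Cdkn1c, low in level at a median of 0.484 CPM, fell (-0.13, 0.000131). The list of 8 menin complex genes had 2 higher and 2 lower in females, near the 50.6% called over all genes, among them Men1 (-0.15, adjusted p = 3.99e-10). With Mki67, 1 of the 8 rose, Men1 (0.06, 5.25e-05), and 3 fell. Among 20 p53 targets, 3 were higher and 6 lower in females, again near the 50.6% of all genes, with Bbc3 at -0.61 (3.24e-15). With Mki67, 12 of the 20 rose and 4 fell, against 53.8% of all genes called in either direction.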

How the data were processed

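Islet RNA of each mouse was sequenced from poly(A)-selected libraries with ERCC controls added, per the labels' protocols. The authors deposited expected counts per gene, not scaled between libraries; 67.7% of the values are whole with a tolerance of 0. The second table the authors deposited holds variance-stabilised values, log2-like in scale. In these values 0 of 16927 genes had an unadjusted p under 0.05 between number bands (limma), so they differ from the counts by more than their scale. The submitters' processing notes name GRCm38 and DESeq2, and no source used here gives the aligner, counter or strand setting. Each library is from a different mouse, and no 2 libraries held identical values.

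Expected counts were rounded and filtered by sex with filterByExpr, leaving 16927 genes. Total counts were 15.1 to 68.8 M, so 3 counts, a floor for an observed 0, are 0.198 CPM in the shallowest library; floors cover counting error only. Sex and number band were tested with edgeR 4.0.16 (R 4.3.3), using TMM factors, a quasi-likelihood F test and a threshold of 0.05 after Benjamini-Hochberg adjustment over all tested genes. Standard errors were derived as absolute log2 fold change divided by the root of F. Spread and the Mki67 slope were tested with limma 3.58.1 on log2 CPM (prior count 2). Relations used residuals from the 8 means of sex and band, two-sided permutation tests with 100000 permutations within sex and band, and adjustment over all relations computed (Python 3.11.15, NumPy 2.4.6). In the alternatives that leave out 2 mice, 10000 permutations were drawn. Members and lists were chosen with earlier results of these data known. Named correlates are the 6 highest and 3 lowest genes over 5 Mb away with a mean of at least 5 CPM and no placeholder symbol, and up to 2 within 2 Mb at an absolute r of at least 0.3; of each list, up to 4 genes with the smallest adjusted p are named, and any further name was picked with its value known. Alternatives used DESeq2 1.42.0, limma-voom, RLE factors, no filter, other covariates, single bands, the deposited values and leaving out the 2 females of low Xist. Tested on simulated data of the same 16927 genes, the comparison of the sexes found 54% of 50 genes shifted 1.1-fold and 98% of 50 shifted 1.5-fold, and made 9 false calls.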

Additional observations from a re-analysis of the deposited data

Results flagged for a closer look

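The correlation of Cdkn2c with Mki67 differed between the sexes in a test of the difference itself. It was r = 0.528 in females and 0.748 in males, a difference of -0.219 (permutation of sex within band, adjusted p = 0.00462 over 7 members). The SD of Mki67 was 0.598 in females and 1.01 in males, and the difference of the slopes, -0.11, was not called (adjusted p = 0.228), in an alternative chosen after seeing the data. In the deposited values the difference of r was -0.224 (adjusted p = 0.00329), and without number band 4 it was -0.216 (adjusted p = 0.0361). The part of the wider spread of Mki67 in males was not tested otherwise. Groups of over 10 mice were not searched for single outlying values.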

How the results depend on the processing

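Cdkn2c kept its direction and its call in all 13 alternatives for the sex difference and all 12 for the relation with Mki67. Cdkn1b lost its sex call in 1 of 13 alternatives, Ccnd1 in 3, Ccnd3 and Cdk6 in 6 each, and Cdk4 in 4, 1 of them with the direction turned. Single bands hold fewer mice. Bands 1, 2, 3 and 4 alone gave 2859, 4682, 2622 and 4305 genes and 2, 3, 2 and 2 members called between the sexes, 3982, 2445, 3690 and 5187 genes and 3, 2, 2 and 2 members called with Mki67, 7, 2, 3 and 3 member pairs, and 35, 26, 34 and 30 score relations. The 7 cell type scores left 5459 genes called between the sexes, and 4732 genes and 2 members called with Mki67. Without band 4, 5966 genes and 3 members differed between bands, and in the deposited values 0 and 0. With the slope in place of r, 0 members differed between the sexes. The causes were not tested.

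Turned round, and not called in the named setting unless a p is given, were the sex differences of Cdkn1a (0.0870 in band 3, 0.00610 in band 4) and Cdk4 (-0.0289 in band 4). So were the spread differences of Ccnd3 (0.0120) and Cdkn1a (0.0134) around the sex median only, and of Cdkn1b (-0.00335) without band 4. The slopes on Mki67 turned for Ccnd3 (0.0513 with only sex removed, adjusted p = 0.0482, and 0.0223 in band 4), Cdkn1b (-0.00320 with only sex removed and -0.00407 in band 3) and Cdk6 (0.0186 in band 1 and 0.0822 in band 3). The matching r was 0.114 (adjusted p = 0.0443) and 0.137 for Ccnd3, -0.0105 and -0.0163 for Cdkn1b, and 0.0175 and 0.0800 for Cdk6. Ccnd1 with Cdk4 turned to -0.00273 in band 4, and Ccnd3 with Cdk4 to -0.0228 with only sex removed. Leaving out the 2 females of low Xist, chosen after seeing the data, left 6 members called between the sexes and 12 pairs called. No paired analysis was possible because each mouse number belongs to a single mouse and is not shared between the sexes. Depth limits Cdkn2c most, at a median of 87 counts.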
